A study of Mus musculus with 2 samples.

Results

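Gas6 and the 4 genes that work with it, Pros1, Axl, Mertk and Tyro3, were followed across the cell classes of cultured mouse periosteum before and after a fracture. These are 5 of the 31055 features in the deposited matrices, and all 5 were found in both libraries by gene symbol. They were picked as the ligands and receptors of one signalling pathway with earlier results of these data known, among them the levels of Gas6. The levels and ratios below are therefore descriptions, and none of them is a test.

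Gas6 and Pros1 encode secreted proteins, Gas6 and protein S, which carry vitamin K-dependent Gla domains that bind phosphatidylserine on dying cells and platelets. Their other end binds the TAM receptors, the receptor tyrosine kinases Tyro3, Axl and Mertk. Gas6 binds all of these receptors with highest affinity for Axl, whereas protein S acts through Tyro3 and Mertk. In macrophages Mertk is best known for the engulfment of apoptotic cells, and Axl and Mertk signalling restrains innate immune responses. Gas6 was named for its appearance in growth-arrested fibroblasts, and TAM receptors have been described on osteoclasts.

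The periosteal cells came from Prx1Cre;mTmG mice, in which Cre driven by Prx1 regulatory sequence turns a membrane tdTomato reporter into membrane EGFP in limb mesenchyme and its descendants. One library was made from uninjured periosteum (day 0) and the other from periosteum at day 3 after a tibial fracture, each by droplet-based single-cell RNA sequencing. Both were grown out as explants at 33 °C until 80% confluent, in aMEM with 20% serum, 1% antibiotics and bFGF at 10 ng/mL, and all live cells were loaded without a sort. The series' own design text speaks of culture without expansion, and the sources used here do not give the number or age of the mice. With 1 library per group, no difference between the libraries has a replicate check and no p-value was computed.

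After filtering, 4269 of 4573 uninjured barcodes and 12573 of 16332 day-3 barcodes were kept, with medians of 19397 and 7449 unique molecular identifiers (UMIs, counted transcripts) per cell. The libraries shared 3 barcodes, 2 of them among kept cells. Transcripts of Y-linked genes without Xist marked 74.7% of uninjured and 12.0% of day-3 cells, while Xist without Y-linked transcripts marked 0.0234% and 65.8%. Among cells that could be called, the uninjured library was thus almost wholly of male cells and the day-3 library mostly of female cells, and sex cannot be told apart from injury except within the male cells. Levels are given as CPM, counts per 1000000 UMIs, taken over all cells of a class, with exact Poisson 95% intervals that cover counting error only. Ratios divide the day-3 level by the uninjured level and carry exact conditional binomial 95% intervals of the same kind.

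The classes were groups of clusters. EGFP lineage cells, clusters rich in EGFP and poor in Ptprc and C1q transcripts, numbered 2204 uninjured and 3304 day-3 cells, and all 12 lineage markers were at 10 CPM or more in both. C1q macrophages numbered 1165 and 5623, with 10 of 10 macrophage markers at that level. Acp5 osteoclasts numbered 71 and 588, with 8 of 9 osteoclast markers at that level. MHC class II cells numbered 1 and 115 and could be described at day 3 only. In that cluster 9 of 10 MHC class II markers were at 10 CPM or more. So were all 10 macrophage markers, which summed to 3917 CPM, and 3 of 4 B cell markers, which summed to 102 CPM. Also at that level were 2 of 6 neutrophil markers (1261 CPM summed over the list) and 3 of 5 T or NK cell markers (51.4 CPM). The same held for 4 of 9 osteoclast markers (147 CPM) and 4 of 12 lineage markers (110 CPM). The cluster is therefore named by its H2-Aa level and not as one cell type. Of the other clusters, those called mixed had intermediate EGFP, 758 and 953 CPM, and also held C1q and Ptprc transcripts. The mixed clusters held 14.6% of uninjured and 3.01% of day-3 cells, and the other myeloid ones 4.54% and 14.4%. A neutrophil cluster and a myeloid precursor cluster held 464 and 293 day-3 cells.

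The 5 genes were placed on GRCm38, the build of the deposited files. Gas6 (ENSMUSG00000031451) spans chr8:13465374-13494490 on the minus strand, Pros1 (ENSMUSG00000022912) chr16:62854307-62929346 on the plus strand and Axl (ENSMUSG00000002602) chr7:25757273-25788705 on the minus strand. Mertk (ENSMUSG00000014361) spans chr2:128698956-128802894 and Tyro3 (ENSMUSG00000027298) chr2:119797733-119818104, both on the plus strand, and all are protein-coding. Gas6 overlaps Tmem255b on the opposite strand, and Mertk overlaps the antisense gene Gm14011 and the snoRNA gene Gm23172. The sources used here do not say whether the counting used strand, but Tmem255b had only 2 UMIs in the uninjured lineage cells and none at day 3, and Gm14011 had 0 UMIs in all classes and both libraries.

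The promoters of Gas6, Axl and Mertk are shown because the results below turn on these genes. Each run is the 250 bases upstream of the RefSeq gene start (GRCm38.p6), 5′ to 3′ on the gene's strand. Capitals mark the GC box GGGCGG that Sp1-family factors bind and the TEAD motif GGAATG, each on either strand.
Gas6, chr8:13494536-13494785, minus strand: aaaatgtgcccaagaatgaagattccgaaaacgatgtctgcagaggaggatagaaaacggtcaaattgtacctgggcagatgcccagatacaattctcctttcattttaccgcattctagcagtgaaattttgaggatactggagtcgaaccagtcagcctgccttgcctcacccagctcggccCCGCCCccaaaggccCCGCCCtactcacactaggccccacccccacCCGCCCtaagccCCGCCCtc
Axl, chr7:25788734-25788983, minus strand: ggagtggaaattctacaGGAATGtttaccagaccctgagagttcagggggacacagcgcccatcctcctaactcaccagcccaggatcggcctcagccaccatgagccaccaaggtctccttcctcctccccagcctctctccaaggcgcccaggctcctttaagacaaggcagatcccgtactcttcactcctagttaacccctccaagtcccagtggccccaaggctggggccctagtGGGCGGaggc
Mertk, chr2:128698665-128698914, plus strand: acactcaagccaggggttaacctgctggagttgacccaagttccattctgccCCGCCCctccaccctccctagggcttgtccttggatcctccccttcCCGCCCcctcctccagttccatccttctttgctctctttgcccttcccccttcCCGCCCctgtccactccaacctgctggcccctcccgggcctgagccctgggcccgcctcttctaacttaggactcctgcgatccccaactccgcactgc
The Gas6 run held 4 GC boxes, all toward its gene end, the Axl run 1 and the Mertk run 3, and the runs of Pros1 and Tyro3 held 5 and 3. The Tyro3 window, chr2:119799264-119799513, lies inside the gene span given above, since the 2 annotations used place the gene start differently. A GC box was found in 32.9% of all 27025 promoter windows of that length. The TEAD motif stood once in the Axl window, in none of the other 4, and in 12.6% of all windows. The AP-1 motif TGANTCA was in none of the 5 windows and in 6.87% of all, and the E-box CANNTG once each in Gas6 and Pros1 and in 66.0% of all. A match describes these letters only, and nothing here measured binding.

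Gas6, the ligand of all TAM receptors, was the gene of the 5 whose source differed most between the libraries. In the uninjured library it stood at 194 CPM in EGFP lineage cells (95% interval 191 to 198, 11152 UMIs), 332 CPM in C1q macrophages (321 to 342, 4082 UMIs) and 51.2 CPM in Acp5 osteoclasts (39.5 to 65.2, 65 UMIs). At day 3 it stood at 7.88 CPM in lineage cells (7.37 to 8.41, 893 UMIs), 350.4 CPM in macrophages (344 to 357, 10756 UMIs), 16.1 CPM in osteoclasts (13.6 to 18.8, 153 UMIs) and 22.6 CPM in MHC class II cells (14.2 to 34.2, 22 UMIs). Macrophages were the highest class in both libraries, lineage cells went from second to last, and the day-3 osteoclasts and MHC class II cells could not be separated by counting error, with a ratio of 1.41 (0.857 to 2.21).

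**Figure D1:**
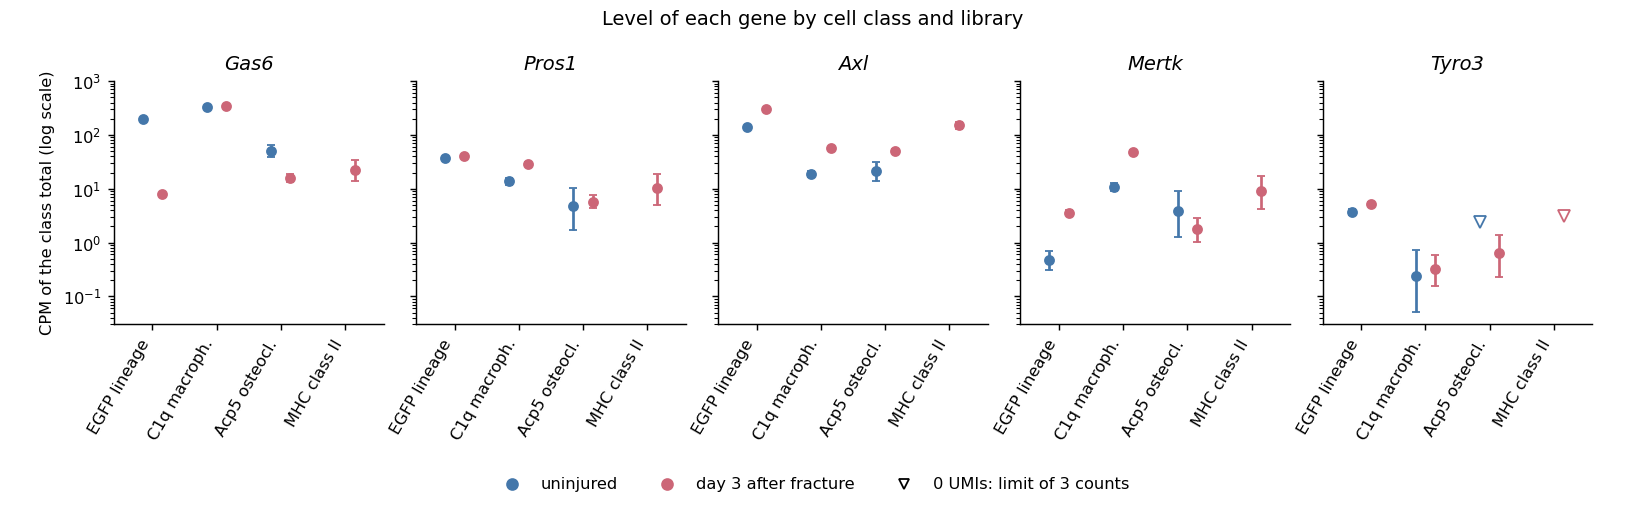
Level of each of the 5 genes in each class, in CPM of the class total on a log axis, for the uninjured (blue) and day-3 (red) library, with bars for exact Poisson 95% intervals and open triangles for the limit of 3 counts where no UMI was found. Gas6 in EGFP lineage cells goes from 194 to 7.88 CPM while Axl in the same cells goes from 140.1 to 308 CPM, and MHC class II cells have a day-3 point only.

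The Gas6 ratio in lineage cells was 0.0406 (0.0379 to 0.0435), a level 24.6-fold lower at day 3. Of the 8117 genes at 10 CPM or more in either library of this class, 99.7% had a higher ratio. Within male cells the ratio was 0.0370. In macrophages the ratio was 1.06 (1.02 to 1.10), in a class whose 8283 genes had a median log2 ratio of 0.65, so that relative to the median gene it was 0.672. Scaling by edgeR's TMM factors multiplied each macrophage ratio by 0.719 and put Gas6 at 0.760, and in 7 of 12 alternatives Gas6 in macrophages lay below 1. In osteoclasts the ratio was 0.314 (0.233 to 0.426), on 65 and 153 UMIs. It was 0.604 without doublet removal, 0.544 with the libraries clustered apart and 0.191 in male cells, so that its size depends on which cells are in the class. Osteoclast Gas6 was 15.4% of its macrophage level in the uninjured library and 4.58% at day 3, where the 8 macrophage markers named below summed to 11.2% and 13.4%, with medians of 6.74% and 3.27% and Csf1r, which osteoclasts also express, the highest at 78.1% and 81.7%. At day 3 Gas6 thus lay above the median marker and below the sum. The part of stray macrophage RNA in it was not tested.

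The cells that carried most Gas6 transcripts differed between the libraries. Lineage cells held 57.8% of the 19291 Gas6 UMIs of the uninjured library and 6.85% of the 13044 of the day-3 library, while macrophages held 21.2% and 82.5%. Lineage cells were 51.6% and 26.3% of the cells, and macrophages 27.3% and 44.7%, so the shares of Gas6 UMIs moved further than the shares of cells. Depth differed between the classes, so a share of cells is not a share of all UMIs. Over all genes lineage cells held 57434791 and 113318236 UMIs, and macrophages 12312235 and 30695043. Mixed clusters held 20.4% of the uninjured and 3.63% of the day-3 Gas6 UMIs. For Axl and Pros1, by comparison, lineage cells held 83.1% and 74.1% of the uninjured and 83.6% and 73.5% of the day-3 UMIs.

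**Figure D2:**
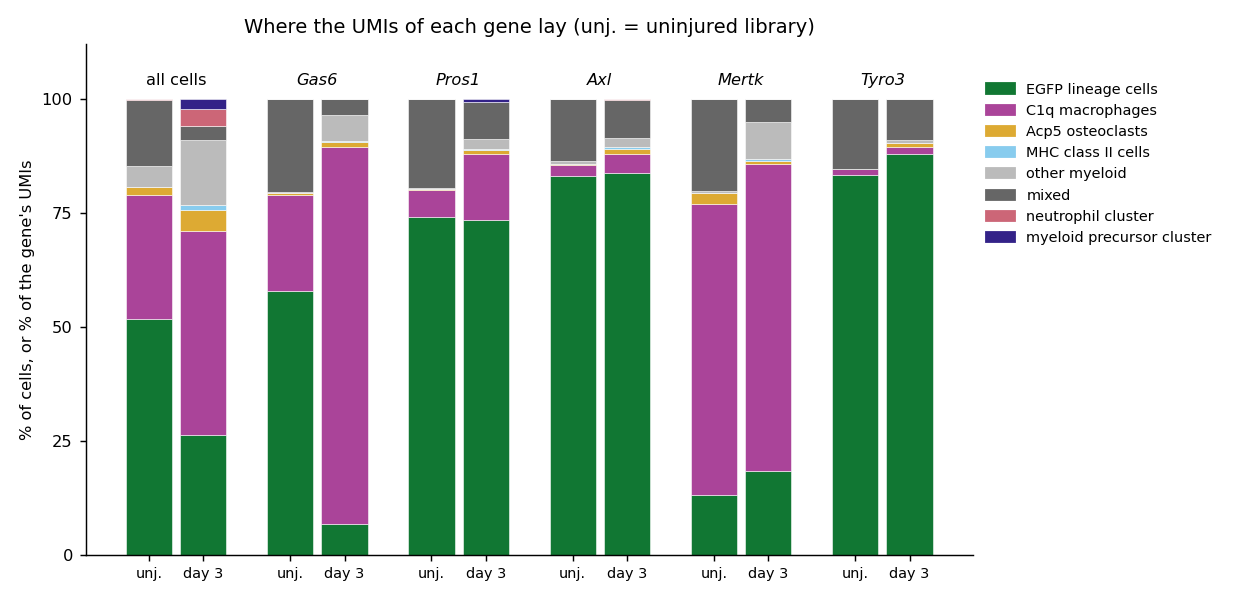
Shares of all kept cells (first pair of bars) and of each gene's UMIs (other pairs) that lay in each class, for the uninjured and the day-3 library. The Gas6 bars change from 57.8% lineage cells to 82.5% macrophages, whereas the Axl bars are 83.1% and 83.6% lineage cells.

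Counted per cell the picture was similar. After each cell was thinned to 3000 UMIs and shallower cells were left out, a Gas6 UMI was found in 34.1% of 2197 uninjured lineage cells (32.1% to 36.1%, exact Clopper-Pearson) and 2.14% of 3090 day-3 lineage cells (1.66% to 2.71%). None of the 163 day-3 lineage cells of cluster 23, a shallow cluster described below, reached 3000 UMIs. Without thinning, 25.8% of that cluster had a Gas6 UMI. In macrophages the thinned shares were 56.6% of 1098 and 53.3% of 3943 cells, and in osteoclasts 15.9% of 69 and 5.66% of 565. Without thinning the shares were 71.4% and 18.9% in all lineage cells, whose median depths were 24184 and 32230 UMIs. They were 84.9% and 63.6% in macrophages, whose median depths were 10195 and 4487 UMIs. In the neutrophil cluster of the day-3 library, which serves as a gauge of stray transcripts at a median depth of 2904 UMIs, 0 of 222 thinned cells had a Gas6 UMI, which allows a share of up to 1.35%, and the level was 1.16 CPM.

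Macrophage transcripts in lineage cells were low in both libraries. The rule for this class admitted only clusters under 150 CPM of summed C1q, so the low C1qa, C1qb and C1qc follow in part from it. The 8 macrophage markers C1qa, C1qb, C1qc, Adgre1, Csf1r, Mrc1, Fcgr1 and Cd14 summed to 99.1 CPM in uninjured and 42.6 CPM in day-3 lineage cells, 1.48% and 1.09% of their level in macrophages, with no marker at 0. Gas6 in lineage cells was 58.6% of its macrophage level in the uninjured library and 2.25% at day 3. Single markers ranged from 0.449% (C1qa) to 9.29% (Cd14) at day 3, with a median of 0.762%. The remaining day-3 level of Gas6 thus lay above the median marker and the sum, and below Cd14. How much of it came from stray macrophage RNA was not tested.

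Within the lineage, Gas6 also differed between the uninjured clusters. It was highest in cluster 13, led by Ptn, Fmod and Comp, at 433 CPM, and in cluster 12, led by Ptx3, Ly6c1 and Cxcl12, at 387 CPM. It stood at 55.1 CPM in cluster 9, whose leading genes include Acta2 and which held many dividing cells, at 54.6 CPM in the collagen-rich cluster 20, and at 30.3 CPM in the contractile cluster 18. At day 3 the clusters were others: 4.53 CPM in the dividing cluster 5, 6.26 CPM in cluster 6 (Serpinb2, Gzme), 11.4 CPM in cluster 8 (Crabp1, Mmp3, Il33), 17.2 CPM in the small cluster 25 (Col4a1, Ccl11) and 3.17 CPM in cluster 18. Each of these lay below each uninjured cluster.

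One day-3 lineage cluster did not follow this order. Cluster 23, 163 shallow cells with a median of 1170 UMIs, led by the cartilage genes Col2a1 and Acan, had 354 CPM of Gas6 (278 to 445) on 74 UMIs. These were 74 of the 893 day-3 lineage UMIs of Gas6. Shares of thinned lineage cells and the thinned ratio of 0.0279 leave this cluster out, since none of its cells reached 3000 UMIs. A mean of CPM per cell, in which shallow cells count as much as deep ones, put the lineage ratio at 0.0985. Without clusters 18 and 23, a choice made after the clusters were seen, the ratio was 0.0372. Cluster 18 was the only lineage cluster with at least 50 cells of both libraries, and its Gas6 level was 30.3 CPM on 27 UMIs and 3.17 CPM on 7 UMIs. The other lineage clusters each came almost wholly from 1 library.

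Among day-3 macrophages Gas6 was 525 CPM in cluster 0 (Arg1, F13a1, Pf4), 483 CPM in cluster 1 (Mmp12, Lgmn, Cd36), 339 CPM in cluster 4 (Stab1, Fcrls), 209 CPM in the dividing cluster 3 and 139 CPM in cluster 21, led by Cxcl2 and Cxcl3. The uninjured macrophages were nearly all in cluster 2, at 331 CPM, and the 55 day-3 cells of that cluster had 130.2 CPM (80.6 to 199). The 1.06 ratio of the class was thus a mean over clusters that lay above and below the uninjured level. Monocyte genes Ly6c2 and Ccr2 led cluster 14, which had 40.2 CPM, and the Acp5-containing cluster 7, which also carried Tnfrsf11a, the gene of the osteoclast-inducing receptor RANK, had 16.3 CPM, close to the 16.1 CPM of the osteoclasts.

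Pros1, the gene of protein S, was highest in lineage cells, with little difference between the libraries. It stood at 37.7 CPM in uninjured lineage cells (36.2 to 39.4) and 39.8 CPM at day 3 (38.6 to 41.0), a ratio of 1.05 (1.00 to 1.11), with 11.5% and 10.9% of thinned cells holding a UMI. Over the lineage clusters with more than 100 Pros1 UMIs it ranged from 27.3 to 58.4 CPM in the uninjured library and from 33.6 to 56.2 CPM at day 3. In macrophages it was 13.7 CPM (11.7 to 16.0) and 28.8 CPM (26.9 to 30.8), a ratio of 2.10 (1.78 to 2.49) that was 1.51 with TMM scaling and at least 2 in 3 of 12 alternatives. That was 36.4% and 72.4% of its lineage level, where the lineage markers summed to 3.82% and 3.46% of theirs. Osteoclasts had 4.72 and 5.77 CPM, and day-3 MHC class II cells 10.3 CPM (4.93 to 18.9).

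Axl, the receptor with the highest affinity for Gas6, was mainly a transcript of the lineage cells. It stood at 140.1 CPM in uninjured lineage cells (137 to 143, 8047 UMIs) and 308 CPM at day 3 (305 to 312, 34957 UMIs). In macrophages it stood at 18.8 CPM (16.5 to 21.4, 232 UMIs) and 57.9 CPM (55.2 to 60.6, 1776 UMIs). Osteoclasts had 21.3 CPM (14.0 to 30.9, 27 UMIs) and 50.9 CPM (46.5 to 55.6, 485 UMIs), and the day-3 MHC class II cells 149.97 CPM (127 to 176, 146 UMIs). Lineage cells were the highest class in both libraries. Macrophages and osteoclasts were next to each other, with ratios of macrophages over osteoclasts of 0.886 (0.594 to 1.37) uninjured and 1.14 (1.03 to 1.26) at day 3, and at day 3 the MHC class II cells lay between them and the lineage cells.

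The Axl ratio of day 3 over uninjured was 2.20 in lineage cells (2.15 to 2.26), 3.07 in macrophages (2.68 to 3.54) and 2.39 in osteoclasts (1.62 to 3.67). With TMM scaling these were 2.11, 2.21 and 1.93, so that the osteoclast ratio was then below 2. Within male cells they were 2.39, 3.03 and 2.31. Relative to the median gene of each class they were 1.94, 1.95 and 1.75.

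The share of thinned cells with an Axl UMI was 28.0% and 59.5% in lineage cells, 5.19% and 15.9% in macrophages, 5.80% and 13.1% in osteoclasts, and 31.1% in day-3 MHC class II cells (21.8% to 41.7%, 28 of 90). In the neutrophil cluster it was 3.15% (1.28% to 6.39%), at 12.2 CPM. The 12 lineage markers summed to 3.82% of their lineage level in uninjured and 3.46% in day-3 macrophages, with none at 0 and single markers between 2.97% and 6.06% at day 3. Axl in macrophages was 13.4% and 18.8% of its lineage level, above every one of these markers in both libraries. In the neutrophil cluster Axl was 3.96% of the lineage level, next to 3.83% for the summed lineage markers, and so close to the background there. In osteoclasts Axl was 15.2% and 16.5% of its lineage level, against 3.81% and 1.82% for the summed lineage markers, and in day-3 MHC class II cells 48.6% against 2.49%, with Thy1 the highest marker at 45.9% and Lum at 0. The part of stray lineage RNA in these levels was not tested.

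Across the lineage clusters Axl and Gas6 had different orders, though cluster 12 was second in both in the uninjured library. There Axl was highest in cluster 9 at 186 CPM, followed by cluster 12 (135 CPM), cluster 18 (95.5 CPM) and cluster 20 (92.1 CPM), and lowest in cluster 13 (76.2 CPM), the cluster with the most Gas6. At day 3 it was highest in cluster 25 (415 CPM), followed by cluster 5 (332 CPM), cluster 6 (301 CPM), cluster 8 (288 CPM) and cluster 18 (151 CPM). It was lowest, at 43.1 CPM (19.7 to 81.8) on 9 UMIs, in the cartilage cluster 23, which had the most Gas6 of the day-3 lineage clusters. Among the other day-3 lineage clusters, cluster 25 was highest and cluster 18 lowest for both Gas6 and Axl. Axl in cluster 18, present in both libraries, went from 95.5 to 151 CPM.

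In single cells of the uninjured lineage, an Axl UMI was less frequent among cells with a Gas6 UMI. Of 749 thinned lineage cells with a Gas6 UMI, 19.8% had an Axl UMI (17.0% to 22.8%), against 32.3% of 1448 without one (29.9% to 34.8%). At day 3 the shares were 51.5% of 66 (38.9% to 64.0%) and 59.7% of 3024 (57.9% to 61.5%), with intervals that overlap. In day-3 macrophages the shares of cells with an Axl UMI were 17.1% with (15.5% to 18.7%) and 14.6% without a Gas6 UMI (13.0% to 16.3%). These intervals overlap as well. Overlap is not a test of a difference, and cells of 1 library are not replicates. Pros1 went with Gas6 in uninjured lineage cells, in 16.3% of the cells with and 9.05% of those without a Gas6 UMI.

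Dividing lineage cells had less Gas6 and more Axl than the others. Cells whose UMIs of 15 mitotic genes added up to 3 or more were called cycling, a call that depends on depth, and 65.2% of uninjured and 69.5% of day-3 lineage cells met it. In uninjured lineage cells Gas6 was 417 CPM in the other cells and 108 CPM in cycling cells, a ratio of 3.87 (3.73 to 4.02), while Axl was 83.3 and 162 CPM, a ratio of 0.514 (0.484 to 0.545). At day 3 Gas6 was 14.4 and 6.06 CPM in those cells, and Axl 273 and 318 CPM. Between libraries, the Gas6 level of the lineage cells that were not cycling was 417 against 14.4 CPM, a ratio of 0.0347, and the Axl ratio of these cells was 3.27. Both differences between the libraries were present without the cycling cells. Both ratios then lay further from 1 than in all lineage cells, where they were 0.0406 for Gas6 and 2.20 for Axl. The part of cycling in these differences was not tested. In macrophages Gas6 was 416 CPM in other and 295 CPM in cycling cells of the uninjured library and 459 and 209 CPM at day 3. Axl in macrophages was lower in cycling cells, unlike in the lineage, at 23.9 CPM in other and 16.6 CPM in cycling cells uninjured and 65.4 and 48.0 CPM at day 3. For Gas6, day-3 osteoclasts had the opposite order from macrophages, 13.6 CPM in other and 19.1 CPM in cycling cells, a ratio of 0.711 (0.510 to 0.990).

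**Figure D3:**
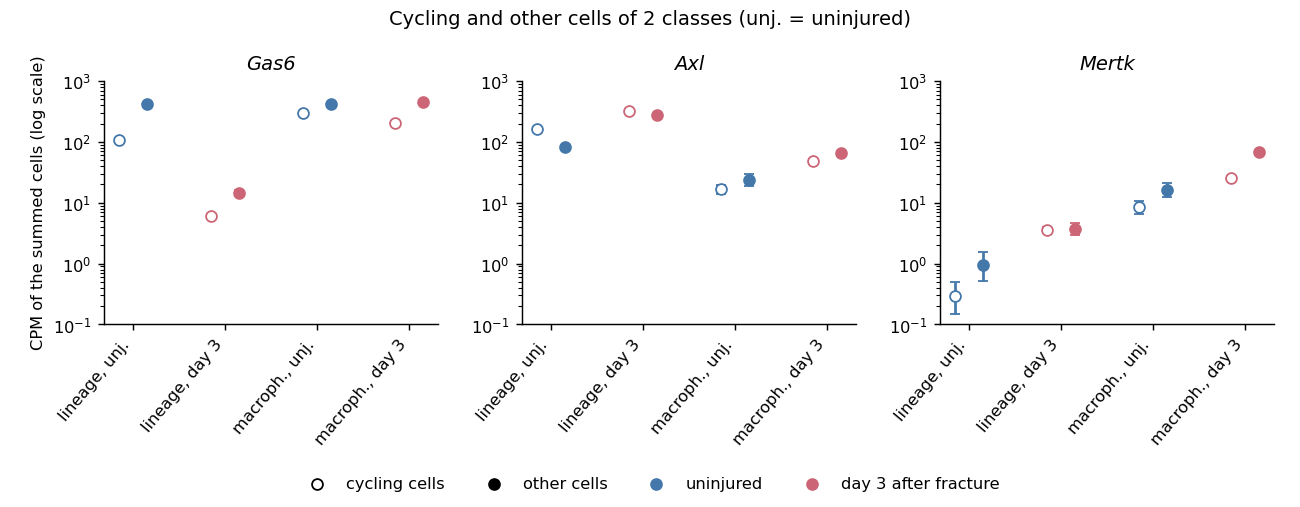
Gas6, Axl and Mertk in cycling cells (open) and other cells (filled) of the EGFP lineage and of the C1q macrophages, in CPM on log axes, by library, with exact Poisson 95% intervals. Gas6 is lower in cycling cells in all 4 pairs, Axl is higher in cycling lineage cells, and the Gas6 points of both kinds of day-3 lineage cells lie at 14.4 and 6.06 CPM.

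Mertk, the receptor of apoptotic cell clearance, was mainly a macrophage transcript. It stood at 10.7 CPM in uninjured macrophages (8.97 to 12.7, 132 UMIs) and 49.0 CPM at day 3 (46.6 to 51.5, 1504 UMIs). Lineage cells had 0.470 CPM (27 UMIs) and 3.61 CPM (409 UMIs), osteoclasts 3.94 CPM (5 UMIs) and 1.78 CPM (17 UMIs), and day-3 MHC class II cells 9.24 CPM (4.23 to 17.5, 9 UMIs). Macrophages held 63.8% of the 207 Mertk UMIs of the uninjured library and 67.3% of the 2234 of the day-3 library. The day-3 macrophage level was 27.5 times that of osteoclasts (17.1 to 47.3), 13.6 times that of lineage cells (12.2 to 15.2) and 5.30 times that of MHC class II cells (2.78 to 11.6).

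The macrophage ratio of Mertk was 4.57 (3.82 to 5.50), and 1.87% of the 8283 genes had a higher one. It was 3.29 with TMM scaling, the lowest of 12 alternatives, and 5.11 as a mean of CPM per cell, the highest. The share of thinned macrophages with a Mertk UMI was 3.92% (2.85% to 5.24%) and 14.2% (13.1% to 15.3%), while 0 of 222 neutrophil-cluster cells had one, which allows up to 1.35%. In male and female day-3 macrophages the level was 48.1 and 46.7 CPM. In macrophages that were not cycling it was 16.1 CPM uninjured and 67.3 CPM at day 3, and in cycling ones 8.38 and 25.1 CPM.

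Mertk and Gas6 were highest in the same day-3 macrophage clusters, 0, 1 and 4. Mertk was 82.0 CPM in the first, 81.3 CPM in the second and 41.1 CPM in the third of these, while cluster 21 had 27.7 CPM and cluster 3 had 22.8 CPM, all above the 10.7 CPM of the uninjured cluster 2. The 55 day-3 cells of cluster 2 had 1 Mertk UMI, 6.20 CPM (0.157 to 34.6). Axl in the same clusters lay between 47.8 and 75.2 CPM, against 18.7 CPM in cluster 2. In osteoclasts and in cluster 7 Mertk was 1.78 and 4.32 CPM, but Axl was 50.9 and 60.6 CPM. Macrophages and osteoclasts at day 3 therefore differed 21.8-fold in Gas6 (18.6 to 25.8) and 27.5-fold in Mertk, and 1.14-fold in Axl. By cell, 17.2% of day-3 macrophages with a Gas6 UMI had a Mertk UMI (15.6% to 18.9%) and 10.8% of those without (9.38% to 12.3%).

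In lineage cells Mertk stayed below 10 CPM in both libraries, and its ratio of 7.68 (5.20 to 11.8) rests on 27 and 409 UMIs. The day-3 level was 7.37% of the macrophage level, against 1.09% for the summed macrophage markers and up to 9.29% for Cd14. Cluster 6 had 5.06 CPM, cluster 5 had 3.95 CPM and cluster 8 had 1.64 CPM, and 0 UMIs were found at day 3 in cluster 18, which allows up to 1.36 CPM. Whether lineage cells make the transcript at this level was not tested.

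The receptors found in single cells were counted at 3000 UMIs. At 3000 UMIs per cell, 57.9% of day-3 lineage cells had Axl as their only TAM receptor, and 1.65% had more than 1 receptor. Of day-3 macrophages, 13.1% had only Axl, 11.4% only Mertk and 2.82% both (2.32% to 3.38%), against 4.74%, 3.46% and 0.455% uninjured. A Mertk UMI was found in 17.7% of day-3 macrophages with an Axl UMI (14.8% to 20.9%) and in 13.5% of those without (12.4% to 14.8%). In osteoclasts at day 3, 12.9% had only Axl and 0.531% only Mertk. These shares count cells with a UMI at a fixed depth, and neither missed nor stray transcripts are corrected for.

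Tyro3, the third TAM receptor and best known in neurons, was a low lineage transcript. It had 3.74 CPM in uninjured lineage cells (3.26 to 4.28, 215 UMIs) and 5.20 CPM at day 3 (4.79 to 5.63, 589 UMIs), a ratio of 1.39 (1.19 to 1.63) below the minimum level used for calls. Lineage cells held 83.3% and 87.9% of its UMIs. Macrophages had 3 and 10 UMIs, osteoclasts 0 and 6, and MHC class II cells 0, which allows levels of up to 2.36 CPM in uninjured osteoclasts and 3.08 CPM in MHC class II cells. With 1.05% and 1.55% of thinned lineage cells holding a UMI, it was not detectable in most cells at this depth.

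Counted against all genes, 3 of the 5 genes passed 10 CPM in lineage cells. Among them Axl was at least 2-fold higher at day 3, as were 17.2% of the 8117 genes, and Gas6 at least 2-fold lower, as were 6.31%. In macrophages 4 of 5 passed and 3 of them, Pros1, Axl and Mertk, were at least 2-fold higher, as were 33.3% of 8283 genes, and none was lower, as were 4.3%. In osteoclasts 2 of 5 passed, Axl higher and Gas6 lower, against 18.8% and 2.92% of 7693 genes. Since the genes were chosen with these levels known, nothing is read from these counts. In macrophages the background itself depends on scaling, for 88.6% of the genes at least 2-fold apart were higher at day 3, and 49.95% were with TMM scaling. With that scaling Axl stayed higher and Gas6 lower in lineage cells, as 15.4% and 7.28% of genes were. In macrophages Axl and Mertk stayed higher and Pros1 did not, with 13% of genes higher and 13% lower. In osteoclasts Gas6 stayed lower and Axl was no longer called, with 8.39% higher and 6.28% lower.

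**Figure D4:**
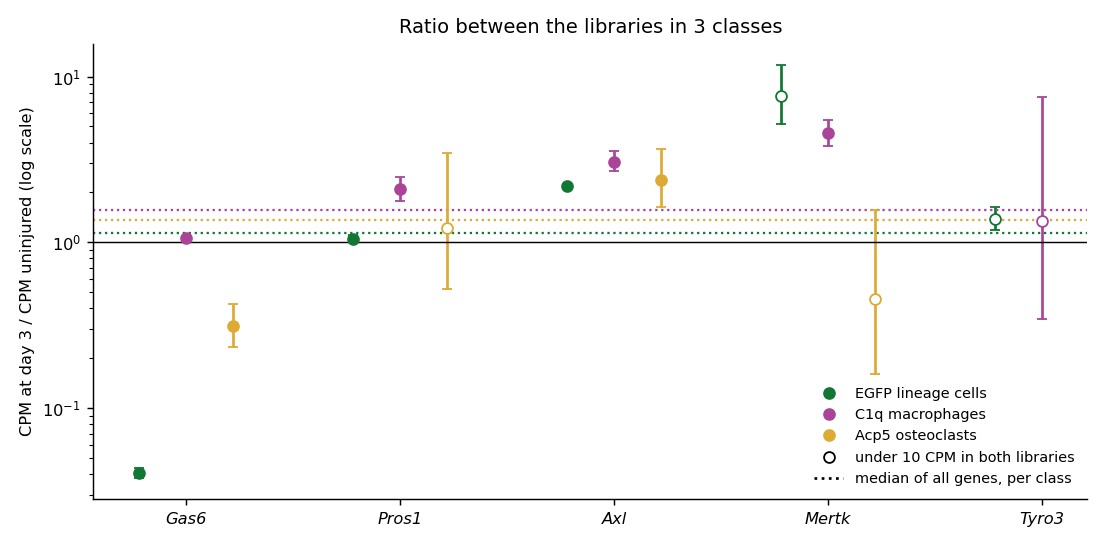
Day-3 level divided by uninjured level of each gene in 3 classes, on a log axis, with exact conditional binomial 95% intervals. Open points are genes under 10 CPM in both libraries, dotted lines the median gene of each class, and Tyro3 in osteoclasts is not drawn because it had 0 UMIs in the uninjured library; Gas6 lies at 0.0406, 1.06 and 0.314.

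The genes around the pathway were taken from 10 lists with 97 entries, of which those at 10 CPM or more in either library are counted. In lineage cells 58 passed, with 14 at least 2-fold higher and 6 lower, also with TMM scaling, against 17.2% and 6.31% of all genes. In macrophages 64 passed, with 35 higher and 2 lower, against 33.3% and 4.3% of all genes. With TMM scaling 14 were higher and 2 lower, against 13% and 13%, since a ratio of 2.78 then becomes 2 and every ratio between 1 and 1.39 turns below 1. The counts and values that follow are without that scaling unless it is named. Gas6 and protein S need gamma-carboxylation by the vitamin K cycle. Of 5 genes of that cycle 4 passed in each class. In lineage cells 1 was at least 2-fold lower, Vkorc1, the vitamin K epoxide reductase, at 126 and 27.1 CPM (ratio 0.215), and 0 were higher (17.2% of all genes were), with Aifm2 at 1.37, Nqo1 at 1.47 and the paralog Vkorc1l1 at 1.76. In macrophages Vkorc1 was again the lowest, at 50.1 and 21.9 CPM (0.436), and Aifm2, which can reduce vitamin K, the highest, at 2.01, a call that ends with TMM scaling. The median log2 ratio of the list was 0.51 in both classes, against 0.19 for all genes in lineage cells and 0.65 in macrophages.

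Other Gla proteins were mostly below the minimum level. Of 15 genes 3 passed in lineage cells and 2 in macrophages. Bglap2, one of the near-identical osteocalcin genes between which reads can be split, was 10.9 and 0.450 CPM in lineage cells (0.0413), while matrix Gla protein, Mgp, was 598 and 379 CPM (0.634) and Prrg2 0.749. In macrophages Mgp was 33.1 and 14.8 CPM (0.445), below its lineage level in the same library, and Prrg2 had a ratio of 1.37. Single lineage markers in macrophages lay at 2.84% to 7.85% of their lineage level uninjured and at 2.97% to 6.06% at day 3. How much of the macrophage Mgp came from stray lineage RNA was not tested.

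Other receptors and bridging molecules for phosphatidylserine made a list of 18. In lineage cells 2 of 7 that passed were at least 2-fold higher and 0 lower (17.2% and 6.31% of all genes were): the integrin genes Itgb3, at 1.51 and 37.2 CPM (ratio 24.5), and Itgav, at 58.0 and 123 CPM (2.12), with Scarb1 at 0.936 and Itgb5 at 1.09 at the other end. In macrophages 7 of 12 were higher, 3 of them with TMM scaling too, and 0 lower (33.3% and 4.3% of all genes were), among them Havcr2, the gene of TIM-3, at 6.82 and 24.5 CPM (3.59), and Itgb5, at 53.2 and 157 CPM (2.94), with Scarb1 at 1.06 and Lrp1 at 1.46. The list medians were 0.50 and 1.16 on the log2 scale. Lgals3, galectin-3, a reported Mertk ligand and the only gene of the list of other TAM ligands that passed, was 761 and 631 CPM in lineage cells (0.829) and 2611 and 1869 CPM in macrophages (0.716).

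Among 14 genes of engulfment and digestion, 10 passed in lineage cells, where 1 was higher and 1 lower (17.2% and 6.31% of all genes were). Rac1, the small GTPase that drives the phagocytic cup, was 133 and 295 CPM (2.23), Dock1 had 1.81, Ucp2 had 0.535, and the engulfment adaptor Gulp1 was 23.2 and 6.82 CPM (0.295). In macrophages 13 passed, 6 higher, 2 of them with TMM scaling too, and 0 lower (33.3% and 4.3% of all genes were), led by the cholesterol exporter Abca1 at 18.8 and 141 CPM (7.51) and the lactate transporter Slc16a1 at 4.55 and 15.2 CPM (3.34), with Anxa1 at 0.920 and Calr at 1.22 lowest. The list medians were 0.63 and 0.95.

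Axl and Mertk can be shed from the surface by the proteases ADAM10 and ADAM17. Of the 5 shedding genes 4 passed in each class, of which 1 was at least 2-fold higher in lineage cells (17.2% of all genes were) and 3 in macrophages (33.3% were), 2 of these with TMM scaling too, and 0 lower. In lineage cells Adam10 was 30.2 and 72.2 CPM (2.39) and Adam17 11.5 and 22.0 CPM (1.92), while Timp3, which inhibits ADAM17, had 0.812 and Rhbdf1 0.926. In macrophages Adam17 was 44.2 and 161 CPM (3.65), Rhbdf2, which carries ADAM17 to the surface, 16.2 and 46.2 CPM (2.84), Adam10 63.0 and 175 CPM (2.78) and Timp3 17.6 and 13.9 CPM (0.791). Timp3 stood at 447 and 363 CPM in lineage cells. The 12 lineage markers summed in macrophages to 3.82% and 3.46% of their lineage level. How much of the macrophage Timp3 came from stray lineage RNA was not tested. The list medians were 0.41 and 1.49.

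Of 8 genes of feedback on innate signalling, 6 passed in lineage cells, 2 higher and 1 lower (17.2% and 6.31% of all genes were). Twist1 was 14.3 and 91.4 CPM (6.41) and Twist2 24.8 and 76.9 CPM (3.096), both repressors that act downstream of Axl in macrophages and are also mesenchymal genes, whereas Socs3 was 64.6 and 22.7 CPM (0.351) and Socs1 had 0.632. In macrophages 3 of 5 were higher (33.3% of all genes were), 2 of them with TMM scaling too, with Tnfaip3 at 2.93, Ifnar2 at 1.20 and Socs3 at 0.985. The list medians were -0.19 and 1.01.

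Receptor adaptors and kinases were at least 2-fold higher for 5 of 8 genes in lineage cells (17.2% of all genes were) and 7 of 11 in macrophages (33.3% were), and lower for 0 in either. With TMM scaling Src alone stayed called in macrophages. Src (2.48) and Grb2 (2.44) were the highest and Pik3r2 (1.01) and Pik3r1 (1.06) the lowest in lineage cells. In macrophages Src was 3.09 and 12.7 CPM (4.12), Vav3 had 2.62, Shc1 1.54 and Pik3r2 1.45. The list medians were 1.12 and 1.07.

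Of 15 transcription factors known to act on Mertk or Axl, 12 passed in lineage cells, 3 higher and 2 lower (17.2% and 6.31% of all genes were). Tead1, a partner of the coactivator Yap1, was 52.7 and 156 CPM (2.95) and Jun 86.6 and 204 CPM (2.35), while Maf was 35.4 and 12.4 CPM (0.350). In macrophages 6 of 9 were higher, 4 of them with TMM scaling too, and 0 lower (33.3% and 4.3% of all genes were), with Sp1 at 14.2 and 58.6 CPM (4.12), Ppard at 3.12, Jun at 1.10 and the liver X receptor gene Nr1h2 at 0.942. The list medians were 0.45 and 1.28. Of the 3 signals that block engulfment, 2 were higher in macrophages (33.3% of all genes were) and 0 with TMM scaling, Sirpa at 369 and 972 CPM (2.64) and Cd24a at 2.11, with Cd47 at 1.98. In lineage cells the 3 lay at 0.692, 0.923 and 0.982, and the list medians were -0.12 in lineage cells and 1.08 in macrophages.

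Across 29 profiles, each a cluster in 1 library with at least 50 cells, Gas6, Axl and Mertk did not share one pattern. With Pearson's r of log2(CPM + 10) as the measure, which describes clusters that share 2 libraries and is no test, the genes closest to Gas6 among 6062 were Igf1 (0.891), Pdlim4 (0.868), Pmp22 (0.845), Bnip3 (0.833) and Rnf150 (0.831). Among the genes closest to Axl were Hmga2 (0.885), Rbpms2 (0.881), Phldb1 (0.874) and Pdlim7 (0.872), and the genes closest to Mertk were Cpeb2 (0.947), Pgap1 (0.939), Sh3bp5 (0.937), Cmklr1 (0.935) and Galc (0.934). Gas6 itself had r of 0.547 with Mertk, 0.388 with Pros1 and -0.172 with Axl, and Axl had 0.643 with Pros1 and -0.0720 with Mertk.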

How the data were processed

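Cells of 2 libraries, uninjured and day 3, were profiled. Per the submitters' processing notes the authors used Cell Ranger, Seurat 4.0.1 and mm10. Version 3.1.0 stands in the header of the matrices. The deposited values are UMI counts per gene and barcode with no normalization, and whether strand was used is not given.

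Barcodes with at least 500 genes, 1000 UMIs and at most 10% mitochondrial UMIs were kept. Since Scrublet's own threshold marked 0 doublets in either library, the highest scores were removed at 0.8% per 1000 barcodes, 162 and 1890 cells. Both libraries were clustered together with scanpy 1.11.5 and leidenalg 0.10.2 (2000 variable genes without the 5 genes, 30 components, 15 neighbours, resolution 1). Clusters were named by levels of EGFP (1000 CPM), C1q (1500 CPM summed), Acp5 (1000 CPM) and H2-Aa (500 CPM), thresholds set after the clusters were seen. Lineage clusters also had Ptprc under 25 CPM and summed C1q under 150 CPM, and macrophage clusters had Acp5 under 100 CPM. Any other cluster with EGFP at 150 CPM or more was called mixed. Different clusters hold most of the lineage and macrophage classes in the 2 libraries. UMIs were summed by class and library. Ratios were called at 2-fold for genes at 10 CPM or more, with no test, since each group is 1 library. A limit for 0 UMIs is 3 counts. Intervals cover counting error only.

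The 5 genes and the pathway lists were chosen with earlier results of these data known. The text names those 5, of each list the 2 highest and the 2 lowest ratios per class, and for Gas6, Axl and Mertk the 5 genes closest in pattern, except that some of these genes are not reported here. On simulated counts for lineage cells (7602 genes), 100 of 100 genes set 4-fold higher and 100 of 100 set 4-fold lower were recovered. Of 7402 unchanged genes, 0 were called. Since a 4-fold change lies past the 2-fold cutoff, this simulation checks the calling steps only. It cannot show how many real calls come from differences between the libraries in animal, sex, culture or sequencing run. Alternatives covered clustering, doublets, depth, sex, cycling cells, gating, weighting and edgeR 4.0.16 TMM scaling. Promoters came from RefSeq (GRCm38.p6) and gene positions from the GENCODE annotation, which held 30934 of the 31055 feature identifiers.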

Additional observations from a re-analysis of the deposited data

Results flagged for a closer look

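The Gas6 ratio of day 3 over uninjured was 0.0406 in EGFP lineage cells and 1.06 in C1q macrophages, so that the same contrast took the gene far down in one class and left it slightly above 1 in the other. It was 0.314 in Acp5 osteoclasts, again against 1.06 in macrophages. Each class gave 1 value per library, and the difference between classes was not tested. The macrophage side rests on the processing, since 7 of 12 alternatives put it below 1, down to 0.760 with TMM scaling, while the lineage ratio lay between 0.0279 and 0.0985 in all 12 and the osteoclast ratio between 0.191 and 0.604 in all 9 that gave a value.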

How the results depend on the processing

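Each group is 1 library, so that animal, culture and sequencing run cannot be told apart from injury, nor sex outside the comparisons within male cells, and depth limits what can be said of Tyro3, of Mertk outside macrophages and of the 71 uninjured osteoclasts. No paired analysis was possible because each group has 1 library, so that the groups share fewer than 2 replicate numbers. Gas6 in lineage cells was at least 2-fold lower and Axl in lineage cells and Axl and Mertk in macrophages at least 2-fold higher in all 12 alternatives run for each class. The causes of the shifts below were not tested.

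The number of genes at least 2-fold apart in lineage cells was 1906, 754 with a minimum of 50 CPM and 5170 with no minimum beyond 10 UMIs, where fewer or more genes were counted. The Gas6 ratio in lineage cells (0.0406) was 0.0439 with libraries clustered apart, 0.0581 at resolution 0.5, 0.0279 with cells thinned to 3000 UMIs, 0.0370 in male cells, 0.0347 without cycling cells, 0.0985 as a mean of CPM per cell, 0.0457 with a gate on each cell and 0.0372 without clusters 18 and 23, a choice made after seeing the data. The Axl ratio in lineage cells (2.20) was 2.26 at resolution 0.5, 2.70 thinned, 2.39 in male cells, 3.27 without cycling cells, 2.36 as a mean per cell, 2.35 with the gate and 2.11 with TMM scaling. The Gas6 ratio in macrophages (1.06) was 0.949 at resolution 0.5, 1.13 at resolution 2, 0.983 with the genes left among the variable genes, where Gas6 and Mertk qualified, 0.952 without doublet removal, 1.14 thinned, 0.986 in male cells, 1.10 without cycling cells, 1.23 as a mean per cell, 0.942 with the gate, 0.760 with TMM scaling and 0.918 with the other myeloid clusters added, also a choice made after seeing the data. In macrophages Axl (3.07) was 3.55 with the gate and 2.21 with TMM scaling, and Mertk (4.57) was 3.29 with TMM scaling.

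Mertk in osteoclasts (0.453, on 5 and 17 UMIs) reversed to 1.32 with libraries clustered apart and 1.28 without doublet removal. Osteoclasts gave no value with the gate or without cycling cells, for fewer than 50 cells were left. Of 35 shares of cells with a UMI, 30 moved without thinning and 24 moved when cells were thinned to 1500 UMIs.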

Other observations

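The day-3 MHC class II cells were not uniform in Axl. Split after the data were seen by their C1q transcripts, the 54 cells with at least 2 C1q UMIs had 223 CPM of Axl (185 to 267) and the 61 cells with at most 1 had 59.6 CPM (38.9 to 87.3). Their median depths were 9744 and 6372 UMIs, so that a split by UMI count also sorted the cells by depth. The cells with at least 2 C1q UMIs had more Csf1r, the gene of the macrophage growth factor receptor, at 471 against 195 CPM. They had less Ccr2, a monocyte chemokine receptor gene, at 253 against 355 CPM. H2-Aa, which the rule for this class used, was 2089 and 2604 CPM. Gas6 was 27.9 CPM (15.6 to 46.1) and 16.0 CPM (6.45 to 33.1), and Mertk had 8 UMIs and 1 UMI.

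The mixed clusters, with lineage and myeloid transcripts together, had 274 CPM of Gas6 and 92.8 CPM of Axl in the uninjured library (cluster 11) and 60.4 CPM of Gas6 and 447 CPM of Axl at day 3 (cluster 17). Myeloid cluster 16 of the day-3 library, led by Mmp12 and Il7r, had 218 CPM of Gas6 and 41.6 CPM of Mertk, and cluster 22 of the uninjured library, with the osteoclast fusion genes Dcstamp and Ocstamp among its leading genes, had 15.01 CPM of Gas6 and 13.2 CPM of Axl.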
